A study of Homo sapiens with 27 samples.

Results

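Collagens are the main structural proteins of the extracellular matrix, and each is built from alpha chains wound into a triple helix, every chain with a gene of its own. The chain genes described here are all genes whose symbol in the array's annotation reads COL, a number, A and a number, measured by probe sets that name 1 gene. They number 32 of the 11963 genes measured, through 73 probe sets, and 22 of them have over 1 probe set. Expression was measured in MDA-MB-231, a human breast cancer line, on Affymetrix HG-U133A+2 arrays. Cells in serum-containing medium received 5SGlcNAc at 50 µM, Thiamet-G at 25 µM, or DMSO as the vehicle. 5SGlcNAc inhibits OGT, the enzyme that places O-GlcNAc on proteins inside the cell, and Thiamet-G inhibits OGA, the enzyme that takes it off. There were 3 arrays per treatment at 48 h, and 1 array per treatment at 0, 2, 4, 6, 8 and 24 h. Whether the 48 h replicates were separate cultures is not stated, and the p-values therefore cover the spread among these arrays of 1 cell line, which may be technical.

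Fibrillar collagens such as types I, III and V form the ropes of connective tissue. Network collagens such as type IV form the sheet of basement membranes, type VI forms beaded filaments around cells, and type VII forms the anchoring fibrils that tie basement membrane to the tissue under it. Fibril-associated collagens decorate fibrils, multiplexins (XV and XVIII) sit in basement membrane zones, and type XIII spans the plasma membrane. In carcinomas most fibrillar collagen is made by fibroblasts, while cancer cells can make basement membrane chains themselves.

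The 9 arrays of 48 h and the 18 arrays of 0 to 24 h were treated as separate sets. Their values were given to different numbers of decimals and their medians, 7.68 to 7.76 and 7.43 to 7.53 on the log2 scale, did not overlap, so levels were not compared across them. All 6 markers fixed for MDA-MB-231 (VIM, CD44, AXL, CAV1, EGFR and PLAU) lay above the median of all genes in both sets. Of 10 fibroblast markers, 0 did at 48 h and 1 did at 0 to 24 h, and none of 7 endothelial or 5 measured haematopoietic markers did. Of 10 luminal epithelial markers, 6 lay above it. RNA integrity, read from ACTB as its 3′ signal minus its 5′ signal (log2), gave 0.15 to 0.39 at 48 h and 0.42 to 1.64 at 0 to 24 h, where the highest values were those of the 4 h arrays of DMSO (1.64) and Thiamet-G (1.24).

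Promoters are shown for COL4A2, COL5A1 and COL6A3, which fell in both main comparisons described further on, with the shared promoter of COL4A1 and COL4A2 as the example of a gene pair read in opposite directions. The windows run from 250 bases before the start of the gene to 50 after it, taken from RefSeq on GRCh38.p14, and are at chr13:110307034-110307333 (plus strand) for COL4A2, chr9:134641553-134641852 (plus strand) for COL5A1 and chr2:237414115-237414414 (minus strand) for COL6A3. Capitals mark the GC box GGGCGG and the sequence CCAAT on either strand.
COL4A2: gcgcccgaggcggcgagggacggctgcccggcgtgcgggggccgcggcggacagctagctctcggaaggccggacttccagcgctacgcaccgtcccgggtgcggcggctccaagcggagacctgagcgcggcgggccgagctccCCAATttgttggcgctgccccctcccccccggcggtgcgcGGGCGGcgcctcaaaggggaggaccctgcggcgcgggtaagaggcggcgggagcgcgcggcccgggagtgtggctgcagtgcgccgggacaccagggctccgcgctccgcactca
COL5A1: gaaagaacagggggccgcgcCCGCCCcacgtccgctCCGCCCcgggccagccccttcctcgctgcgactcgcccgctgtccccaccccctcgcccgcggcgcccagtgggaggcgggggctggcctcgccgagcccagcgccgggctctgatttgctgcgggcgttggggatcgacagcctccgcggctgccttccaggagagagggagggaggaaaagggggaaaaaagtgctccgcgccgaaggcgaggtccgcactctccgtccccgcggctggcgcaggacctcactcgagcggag
COL6A3: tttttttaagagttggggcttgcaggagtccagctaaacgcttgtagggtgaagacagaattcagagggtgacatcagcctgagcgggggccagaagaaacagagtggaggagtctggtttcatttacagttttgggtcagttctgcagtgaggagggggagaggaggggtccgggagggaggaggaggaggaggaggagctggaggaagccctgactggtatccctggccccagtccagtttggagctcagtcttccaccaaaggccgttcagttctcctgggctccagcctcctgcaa
RefSeq windows were found for 23 of the 32 genes. The COL4A2 window holds 1 GC box and 1 CCAAT, the COL5A1 window 2 GC boxes, and the COL6A3 window neither of them. COL4A1 and COL4A2 start 127 bases apart on opposite strands of chromosome 13, and their windows share 226 bases. COL4A3 and COL4A4 on chromosome 2 (419 bases apart) and COL4A5 and COL4A6 on chromosome X (380 bases apart) have the same arrangement. The GC box was in 14 of the 23 collagen windows and in 44.6% of all 27305 promoter windows, CCAAT in 7 and in 35.7%, and TATAAA in 3 and in 12.0%. The AP-1 site TGACTCA was in 0 of the 23 and in 4.92% of all windows, and the SMAD palindrome GTCTAGAC in 0 and in 0.201%. TGACNNNGC, the core of the antioxidant response element that NRF2 binds, was in 2 (COL4A5 and COL4A6) and in 13.6% of all. Each motif was searched on both strands, CCAAT and the other motifs were counted separately, and a match is a string of letters and not a binding site.

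A chain was counted as well expressed where its brightest probe set lay at or above the median of all genes in both sets (8.41 at 48 h and 8.17 at 0 to 24 h), as dim where it lay under the median in both, and otherwise as intermediate. Signals of different probe sets cannot be read as amounts of messenger RNA against each other, so these classes describe array signal. By this measure 6 chains were well expressed, 3 were intermediate and 23 were dim. The order by signal at 48 h began with COL13A1 (12.97, mean of 9 arrays), COL4A2 (11.20), COL4A1 (10.37), COL5A1 (9.59), COL1A1 (9.33) and COL18A1 (8.52). The intermediate chains COL7A1 (8.28), COL6A1 (8.12) and COL6A3 (8.09) lay under the median at 48 h and above it at 0 to 24 h (8.78, 8.39 and 9.27).

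Just inside the threshold was COL18A1, and just outside was COL4A5 at 8.28 at 48 h and 7.56 at 0 to 24 h. As another mark of background, the 95th percentile of 47 olfactory receptor genes, which breast cells are not thought to use, was 7.77 at 48 h and 7.32 at 0 to 24 h. With that mark 10 chains counted as well expressed: the 6, the 3 intermediate ones and COL4A5. The other 22 dim chains were COL9A2, COL11A2, COL8A1, COL5A3, COL6A2, COL16A1, COL9A1, COL5A2, COL2A1, COL1A2, COL4A3, COL14A1, COL8A2, COL15A1, COL4A4, COL10A1, COL19A1, COL11A1, COL3A1, COL4A6, COL9A3 and COL21A1, with means of 4.65 to 7.42 at 48 h.

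**Figure D1:**
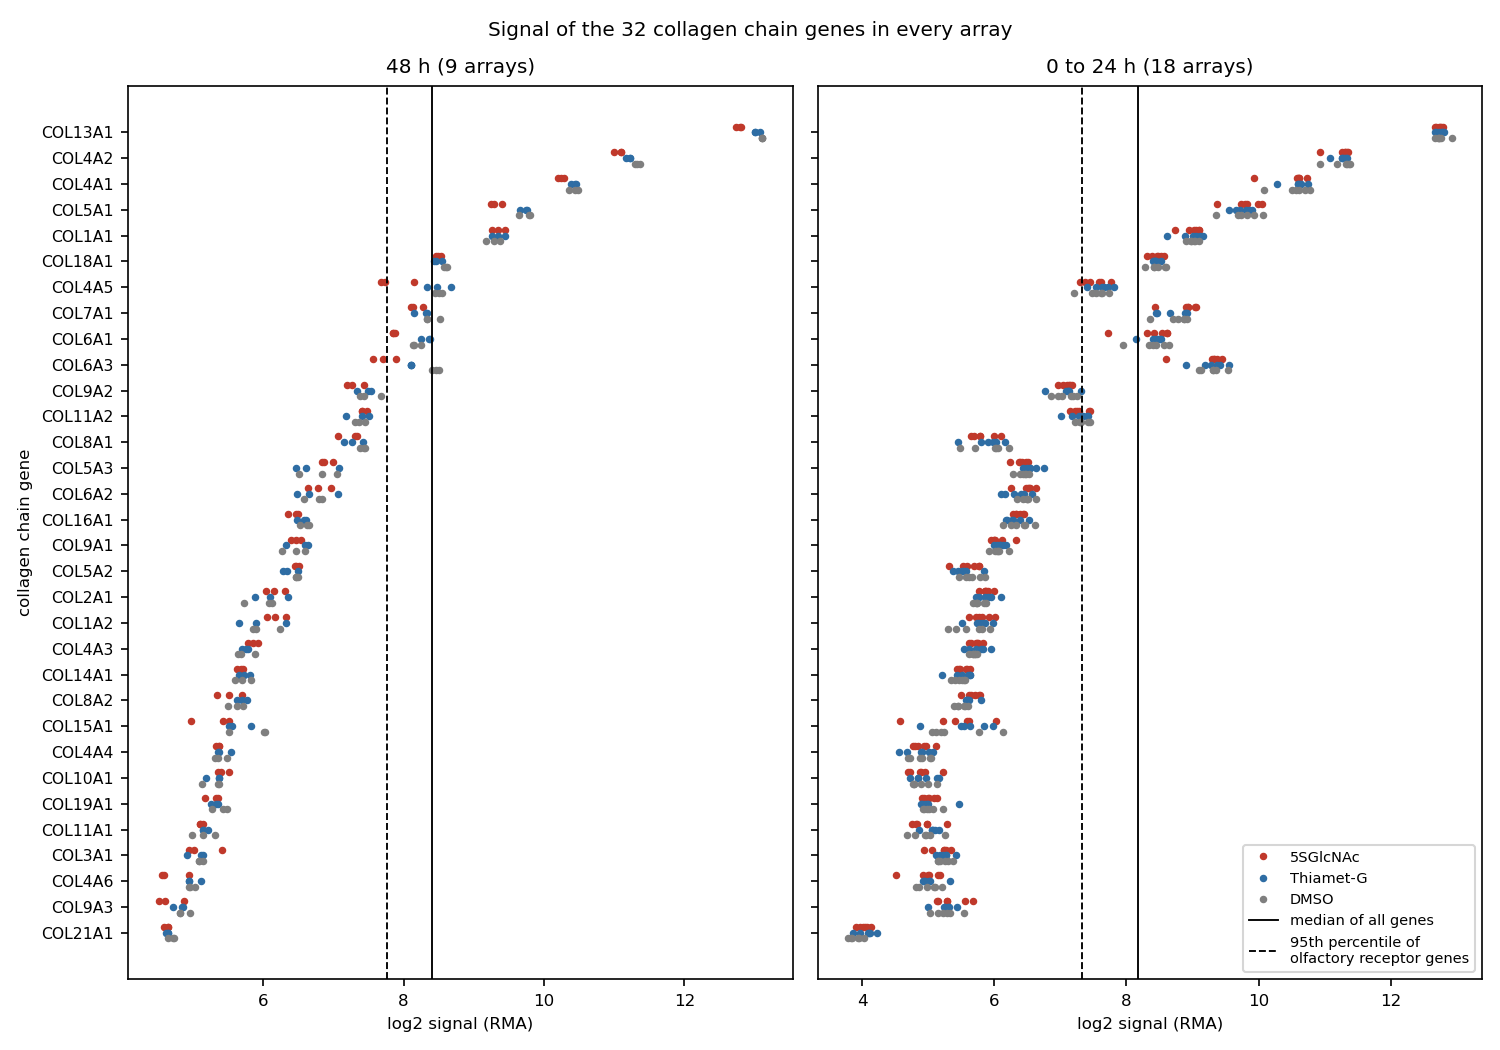
Signal (log2, RMA) of each of the 32 collagen chain genes in the 9 arrays of 48 h and the 18 arrays of 0 to 24 h, 1 point per array, coloured by treatment and ordered by the mean at 48 h. The solid line is the median of all genes (8.41 and 8.17) and the dashed line the 95th percentile of olfactory receptor genes (7.77 and 7.32); COL13A1 lies farthest to the right in both sets.

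The families were unevenly represented among the bright signals. All 7 fibril-associated chains and 7 of 9 fibrillar chains were dim, and of 9 network chains only COL4A1 and COL4A2 were well expressed. COL1A2, the partner of COL1A1 in type I collagen, was dim, at 6.04 at 48 h. The level of COL1A1 itself came from a probe set whose suffix (_x_at) marks possible cross-hybridisation, and its other 3 probe sets averaged 3.99 to 6.85 there. COL5A2, the partner of COL5A1 in type V, was dim at 6.44, and COL6A2, the partner of COL6A1 and COL6A3 in type VI and the neighbour of COL6A1 on chromosome 21, was dim at 6.75. The median GC content of the RefSeq windows was 76.7% for 5 well-expressed chains, 59.3% for 2 intermediate ones and 66.35% for 16 dim ones, against 58.3% over all windows.

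The first comparison asks what blocking O-GlcNAc addition for 48 h did to the collagen chains. With 5SGlcNAc, 7 of the 32 chains fell against DMSO and 0 rose. These were both chains of the common type IV network (COL4A1 and COL4A2), a chain of its specialised form (COL4A5), COL5A1, COL6A1, COL6A3 and COL13A1. Their log2 differences ran from -0.74 to -0.18, and COL6A3 was 1.67-fold lower. Calls are limma adjusted p under 0.05 over all 11963 genes, by which 7.32% of genes were lower and 2.92% higher. Of all calls 71.5% were lower, against 60.0% after quantile normalization and 58.7% after median centring of the arrays. At an unadjusted p under 0.05, 13 chains were lower and 0 higher, where 1816 of all 11963 genes were lower and 1233 higher.

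By signal, 4 of 6 well-expressed chains, 2 of 3 intermediate ones and 1 of 23 dim ones fell, with median log2 differences of -0.22, -0.31 and -0.03. The classes rest on means over all arrays of a set, so a chain's own fall can lower its class, here and further on. In the DMSO arrays of 48 h alone, COL6A3 (8.46) and COL4A5 (8.50) lay above the median of all genes over the 9 arrays (8.41). The split by class is thus not independent of the falls. Bright genes were called more often in general: among genes at or above the median level, 11.2% were lower, against 3.43% under it. The median over all 32 chains was -0.10, against 0.01 over all genes. In 11 chains all 3 5SGlcNAc arrays lay under all 3 DMSO arrays, where 18.5% of all genes did not overlap in the lower direction. In 0 chains they lay above them. The share of all genes in the higher direction is not given here, so this 0 cannot be judged against it. The same DMSO arrays serve both inhibitors at 48 h, so the comparisons with 5SGlcNAc and with Thiamet-G are not independent.

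Type VI collagen is built from COL6A1, COL6A2 and COL6A3. COL6A3, the long chain of the beaded filament, had 7.57, 7.89 and 7.70 (log2 signal) in the 5SGlcNAc arrays, 8.10, 8.10 and 8.10 in the Thiamet-G arrays, and 8.41, 8.51 and 8.46 in the DMSO arrays. The 3 groups did not overlap, with 5SGlcNAc lowest and DMSO highest. Against DMSO it fell by 0.74 ± 0.072 with 5SGlcNAc (SE, n = 3 arrays each, limma adjusted p = 0.000431), and this rests on 1 probe set.

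COL6A1, a short chain of the same filament, had 7.85, 7.85 and 7.88 with 5SGlcNAc, 8.37, 8.25 and 8.36 with Thiamet-G, and 8.13, 8.15 and 8.24 with DMSO. All 5SGlcNAc values lay lowest and all Thiamet-G values highest. The fall of 0.31 ± 0.048 with 5SGlcNAc (SE, n = 3, limma adjusted p = 0.00431) was seen in the brightest of its 8 probe sets only. The other 7 probe sets differed by -0.07 to 0.14 with means of 4.52 to 7.12, and with the mean of all probe sets the difference was -0.04 (adjusted p = 0.708). COL6A2, the third chain, differed by 0.06 ± 0.142 (SE, n = 3, adjusted p = 0.839).

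Type IV chains form the basement membrane network. COL4A2 had 10.99, 11.09 and 11.10 with 5SGlcNAc, 11.23, 11.23 and 11.16 with Thiamet-G, and 11.37, 11.32 and 11.29 with DMSO. The groups were ordered without overlap, and COL4A2 fell with 5SGlcNAc by 0.27 ± 0.046 (SE, n = 3, limma adjusted p = 0.00744), with both of its probe sets called.

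COL4A1, transcribed from the same promoter region in the other direction, had 10.20, 10.29 and 10.24 with 5SGlcNAc, 10.46, 10.39 and 10.44 with Thiamet-G, and 10.48, 10.44 and 10.35 with DMSO. Thiamet-G and DMSO overlapped while 5SGlcNAc lay under both. Its fall of 0.18 ± 0.048 (SE, n = 3, adjusted p = 0.0435) was near the threshold, and the call was lost under several settings. Among them were quantile normalization (adjusted p = 0.0748) and leaving out any 1 array of 5SGlcNAc or DMSO apart from DMSO replicate 3. The dimmer probe set of COL4A1 fell by 0.28 (adjusted p = 0.0234 over all probe sets).

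COL4A5, a chain of specialised basement membranes such as that of the kidney glomerulus, was just under the level of a median gene by its mean over all 9 arrays. That mean includes the 5SGlcNAc arrays, and the mean of COL4A5 in DMSO alone was 8.50. It had 7.74, 7.67 and 8.14 with 5SGlcNAc, 8.67, 8.33 and 8.48 with Thiamet-G, and 8.51, 8.54 and 8.45 with DMSO. The 5SGlcNAc arrays were lowest and varied by more than those of DMSO, and the fall was 0.65 ± 0.122 (SE, n = 3, limma adjusted p = 0.00997). COL4A6, which pairs with it on chromosome X, was dim and differed by -0.28 ± 0.096 (SE, n = 3, adjusted p = 0.106), and COL4A3 and COL4A4 differed by 0.12 and -0.03.

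COL5A1, the chain of type V that sits inside type I fibrils and limits their width, had 9.28, 9.24 and 9.40 with 5SGlcNAc, 9.66, 9.74 and 9.76 with Thiamet-G, and 9.64, 9.79 and 9.80 with DMSO. It fell by 0.44 ± 0.061 (SE, n = 3, limma adjusted p = 0.00284), and all 3 of its probe sets were called, at -0.24 to -0.45. Its partner COL5A2 differed by 0.003 ± 0.055 (SE, n = 3, adjusted p = 0.980), at a dim level. COL1A1, the main chain of type I collagen, was not called: 9.45, 9.35 and 9.26 with 5SGlcNAc, 9.26, 9.45 and 9.35 with Thiamet-G, and 9.37, 9.17 and 9.29 with DMSO, with all groups overlapping.

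COL13A1, the transmembrane collagen found at cell adhesion sites, gave the brightest collagen signal. It had 12.74, 12.79 and 12.81 with 5SGlcNAc, 13.07, 13.01 and 13.00 with Thiamet-G, and 13.10, 13.11 and 13.11 with DMSO. Here too the groups did not overlap. The fall of 0.33 ± 0.039 (SE, n = 3, limma adjusted p = 0.00139) was called in all 3 probe sets, at -0.30 to -0.43.

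Among the remaining brighter chains, COL18A1, whose C-terminal fragment is endostatin, had 8.46, 8.49 and 8.53 with 5SGlcNAc, 8.46, 8.55 and 8.43 with Thiamet-G, and 8.61, 8.57 and 8.62 with DMSO. Both inhibitors lay under DMSO in every array, but neither difference was called (-0.11, adjusted p = 0.173, and -0.12, adjusted p = 0.181). COL7A1 of the anchoring fibril had 8.11, 8.13 and 8.28 with 5SGlcNAc, 8.14, 8.32 and 8.33 with Thiamet-G, and 8.33, 8.52 and 8.33 with DMSO, and differed by -0.22 with 5SGlcNAc (adjusted p = 0.103). The 22 dim chains that were not called differed by -0.55 to 0.19, the lowest being COL15A1, the other multiplexin (-0.55 ± 0.172, SE, n = 3, adjusted p = 0.0798).

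**Figure D2:**
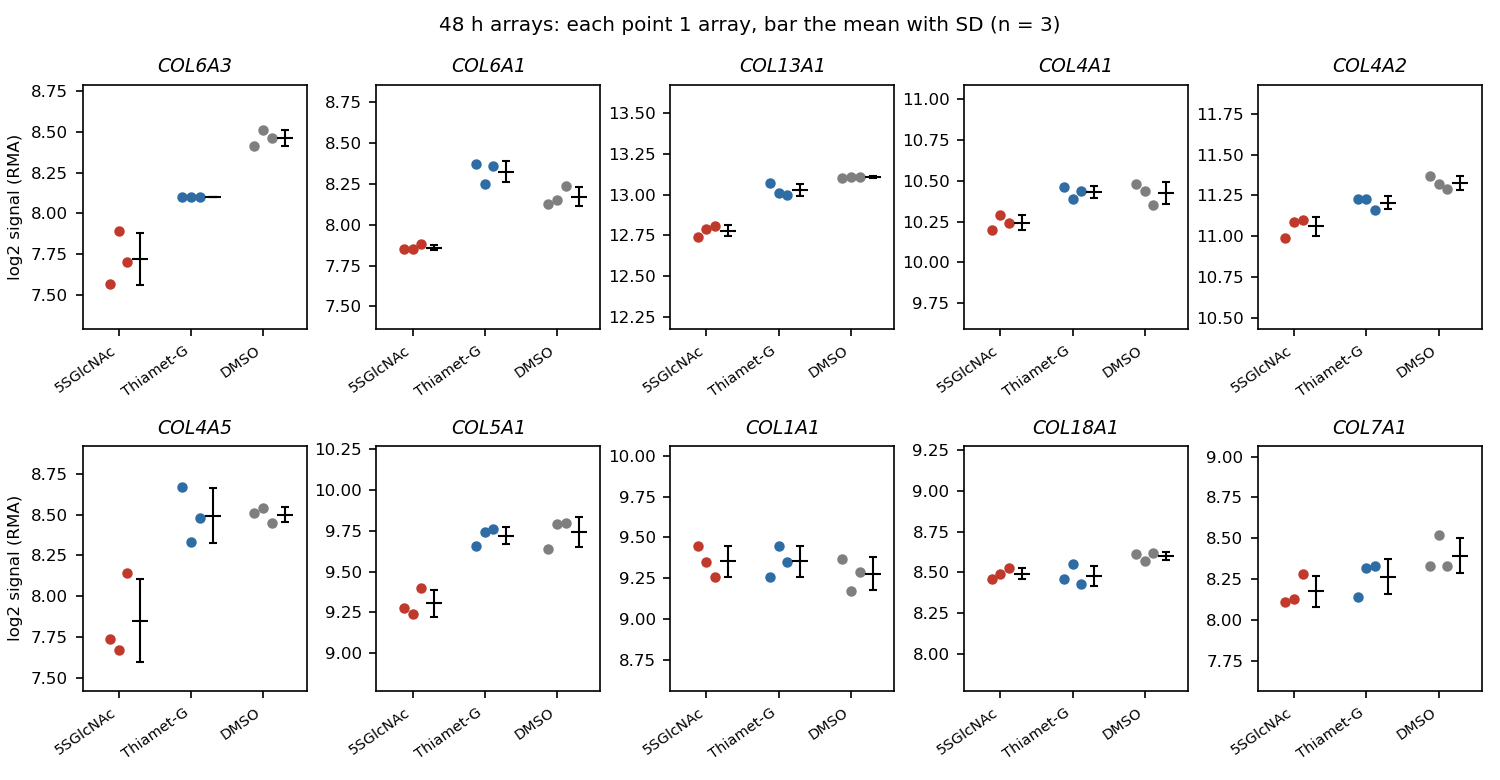
Log2 signal (RMA) of 10 collagen chain genes in the 48 h arrays, each panel spanning the same height of 1.5 log2 units, with 1 point per array and the mean with its SD (n = 3) beside the points. The 5SGlcNAc arrays lie under both other groups for COL6A3, COL6A1, COL13A1, COL4A1, COL4A2, COL4A5 and COL5A1, and the groups overlap for COL1A1.

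Over all 19064 probe sets, 5.57% were lower with 5SGlcNAc against DMSO, and 12 of the 73 collagen probe sets were. Marker levels also differed between the arrays. The summed level of the 10 luminal markers was 87.88 to 87.93 with 5SGlcNAc, 89.49 to 89.74 with Thiamet-G and 89.39 to 89.87 with DMSO, with 3 of the 10 called lower with 5SGlcNAc (CDH1, KRT19 and CLDN7). The background for these marker counts is 7.32% of all genes lower and 2.92% higher. CDH1 was dim, with a mean of 6.28 at 48 h, under the olfactory receptor mark of 7.77, so the size of its fall is uncertain. The summed level of the 6 MDA-MB-231 markers was 78.33 to 78.47 with 5SGlcNAc, 79.08 to 79.17 with Thiamet-G and 79.09 to 79.53 with DMSO, with 1 called lower with 5SGlcNAc (PLAU, -0.55, adjusted p = 0.000285). Of the 10 fibroblast markers 1 was called lower (LUM), of the 7 endothelial markers 1 (PECAM1, -0.33, adjusted p = 0.0338, at a dim mean of 6.85) and of the 5 haematopoietic ones 0. The summed level of the 10 fibroblast markers was 62.03 to 63.00 with 5SGlcNAc, 62.89 to 63.20 with Thiamet-G and 62.27 to 63.16 with DMSO, and the defining genes PDGFRA (5.97), FAP (4.17) and POSTN (3.92) were among the dim ones at 48 h. Their part in the collagen result was not tested. In bulk RNA, fewer cells that make a transcript and less of it per cell cannot be told apart.

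With Thiamet-G for 48 h, which blocks removal of O-GlcNAc, only COL6A3 was called among the 32 chains. It fell by 0.36 ± 0.072 (SE, n = 3 arrays each, limma adjusted p = 0.0307), a difference in the same direction as with 5SGlcNAc. Over all genes 3.01% were lower and 0.476% higher, so that 86.3% of calls were lower, against 73.6% after quantile normalization and 74.5% after median centring. The call was lost after quantile normalization (-0.31, adjusted p = 0.0790), after median centring of arrays (-0.32, adjusted p = 0.0758) and without any 1 of the 6 arrays apart from Thiamet-G replicate 2 (adjusted p = 0.0692 to 0.105). By its brightest probe set, COL6A1 was higher than DMSO in all 3 arrays by 0.15 but was not called (adjusted p = 0.127). With the mean of its 8 probe sets the difference was -0.005 (limma adjusted p = 0.969). At an unadjusted p under 0.05, 3 chains were lower and 1 was higher, where 1652 of all 11963 genes were lower and 721 higher.

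The median of the 32 chains with Thiamet-G was -0.03, against -0.01 over all genes. In 4 chains (COL6A3, COL18A1, COL4A2 and COL13A1) all Thiamet-G arrays lay under all DMSO arrays, against 15.1% of all genes. COL4A5, which fell by 0.65 with 5SGlcNAc, differed by -0.007 with Thiamet-G (95% interval -0.28 to 0.27, adjusted p = 0.980), and COL5A1 differed by -0.02 (adjusted p = 0.871).

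The 2 inhibitors were then set against each other directly. With 5SGlcNAc against Thiamet-G, 6 chains were lower and 0 higher, where 6.79% of all genes were lower and 6.87% higher. The 6 were COL6A1 (-0.47, limma adjusted p = 0.000426), COL5A1 (-0.41, adjusted p = 0.00256), COL13A1 (-0.25, adjusted p = 0.00387), COL4A5 (-0.64, adjusted p = 0.00861), COL6A3 (-0.38, adjusted p = 0.00879) and COL4A1 (-0.19, adjusted p = 0.0314). For COL6A1 this was again 1 of 8 probe sets, and the mean of its probe sets differed by -0.03 (adjusted p = 0.754). The COL4A1 call was lost with the replicate number as a block (adjusted p = 0.0681), with only the 2 groups in the fit (adjusted p = 0.0511) and without 5SGlcNAc replicate 1 or 3 or Thiamet-G replicate 1 or 3 (adjusted p = 0.0853 to 0.111). All 6 were also lower with 5SGlcNAc against DMSO, a comparison that shares the 5SGlcNAc arrays. COL4A2 differed by -0.15 and was not called (adjusted p = 0.0697). At an unadjusted p under 0.05, 8 chains were lower and 0 higher, where 1508 of all 11963 genes were lower and 1812 higher.

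All 5SGlcNAc arrays lay under all Thiamet-G arrays in 7 chains, the 6 and COL4A2, against 13.2% of all genes. Of the 73 collagen probe sets, 9 were lower, against 5.26% of all probe sets. The median of the chains was -0.06, against 0.02 over all genes.

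**Figure D3:**
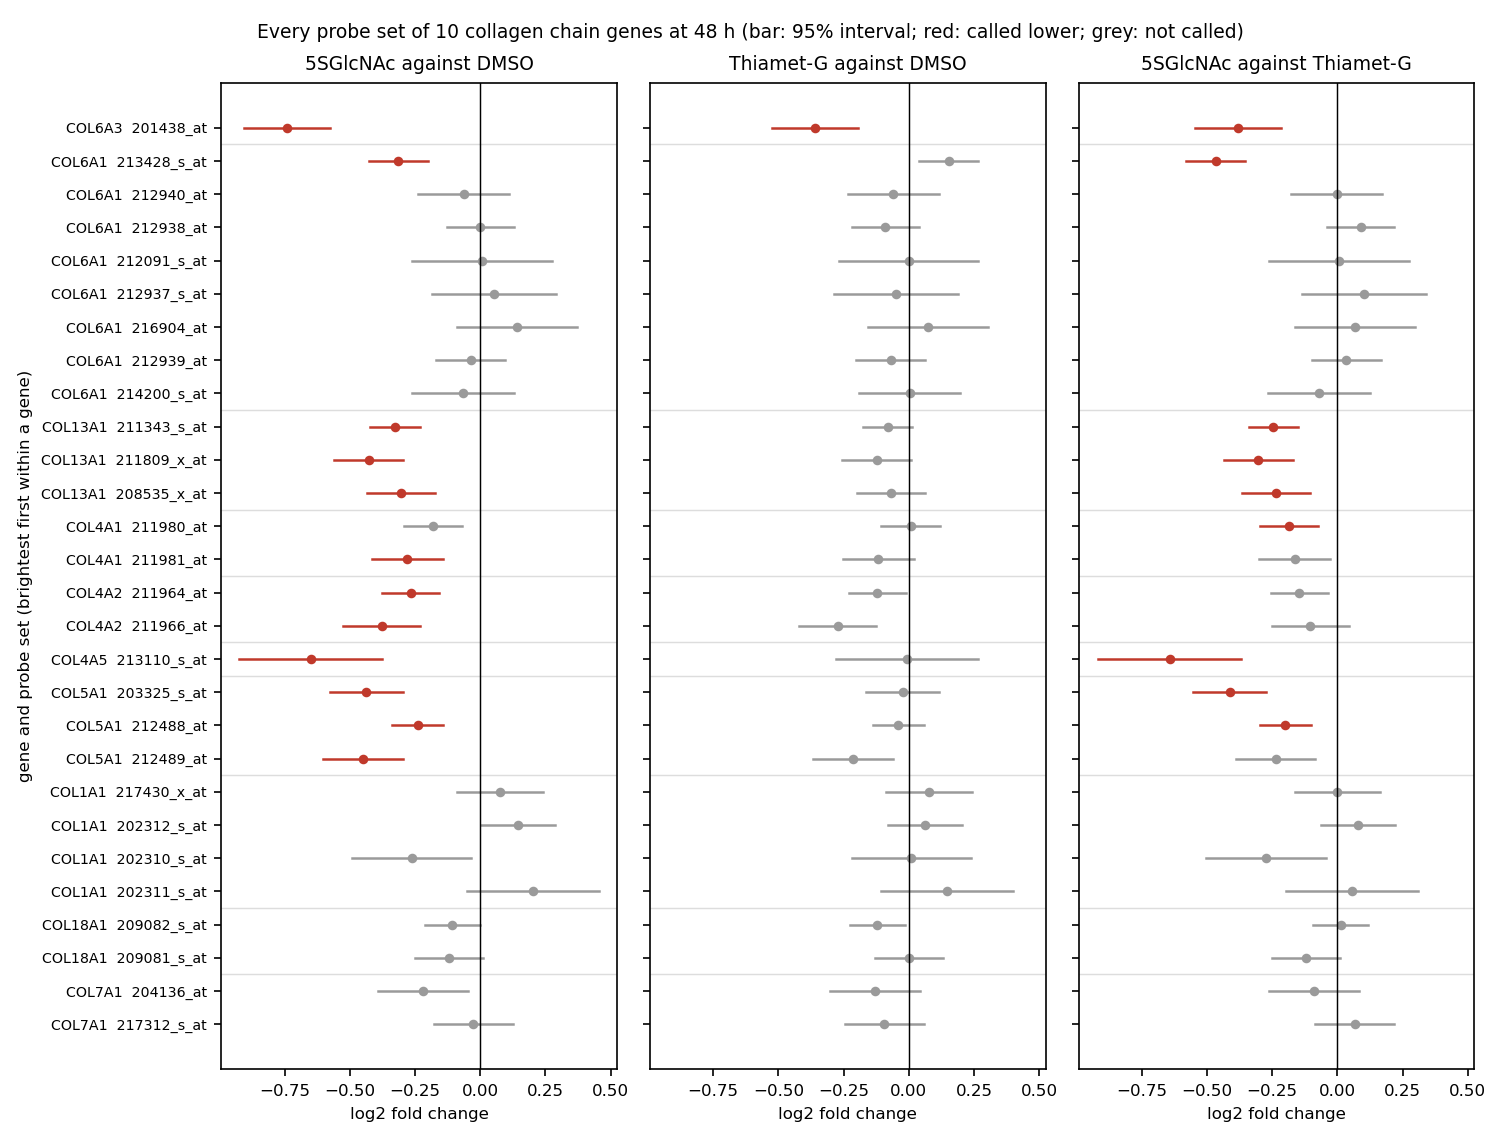
Log2 fold change of every probe set of 10 collagen chain genes at 48 h in 3 comparisons, with 95% intervals, the brightest probe set of each gene first. All probe sets of COL13A1, COL5A1 and COL4A2 were lower with 5SGlcNAc against DMSO, while 1 of 8 of COL6A1 was.

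Genes that modify, cross-link or bind collagen were described from lists. Of 21 measured collagen-modifying enzymes and chaperones, 1 fell with 5SGlcNAc at 48 h and 0 rose (median -0.05), where 7.32% of all genes were lower and 2.92% higher. It was PLOD1, a lysyl hydroxylase (-0.22, limma adjusted p = 0.0319). The same shares are the background for the other lists in this comparison. Of 10 proteinases and cross-linking enzymes, 3 fell and 0 rose (median -0.11). All 3 are lysyl oxidases, which cross-link collagen: LOX (-0.44, adjusted p = 0.00149), LOXL2 (-0.28, adjusted p = 0.0136) and LOXL1 (-0.36, adjusted p = 0.0181).

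Of 10 collagen receptors, 3 fell and 0 rose (median -0.08 over the list). They were the integrin subunits ITGA10 (-0.34, adjusted p = 0.0211) and ITGA2 (-0.21, adjusted p = 0.0435) and the collagen uptake receptor MRC2 (-0.16, adjusted p = 0.0311). Of 13 genes of TGF-beta signalling, the pathway best known for raising collagen genes, the receptor TGFBR2 fell (-0.35, adjusted p = 0.00217) and the matricellular target CCN2 rose (0.26, adjusted p = 0.0175), with a median of -0.06. Of 19 fibril partners, 3 fell and 0 rose (median 0.03): the matrix glycoprotein TNC (-0.56, adjusted p = 0.00161), the laminin chain LAMB1 (-0.43, adjusted p = 0.00331) and the small proteoglycan LUM (-0.49, adjusted p = 0.0476). The LUM signal, with means of 6.24 at 48 h and 4.96 at 0 to 24 h, lay under the olfactory receptor mark in both sets, so the size of its differences here and further on is uncertain.

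With Thiamet-G against DMSO these lists held 1 rise, PLOD2, another lysyl hydroxylase (0.30, limma adjusted p = 0.0466), and 1 fall, FKBP14, a prolyl isomerase (-0.18, adjusted p = 0.0438). Both are among the 21 enzymes and chaperones, and over all genes 3.01% were lower and 0.476% higher. With 5SGlcNAc against Thiamet-G, 3 of 10 proteinases and cross-linking enzymes, 2 of 10 receptors, 3 of 13 TGF-beta genes and 5 of 19 fibril partners were lower, where 6.79% of all genes were lower and 6.87% higher. They included LOX (-0.61, adjusted p = 0.000195), LUM (-0.95, adjusted p = 0.00192), LAMB1 (-0.50, adjusted p = 0.00117) and TGFB2, a TGF-beta ligand (-0.57, adjusted p = 0.00254). In that comparison FKBP14 (0.22, adjusted p = 0.00769) and the collagen chaperone SERPINH1 (0.17, adjusted p = 0.0323) were higher, the 2 of 21 enzymes and chaperones called, as was 1 TGF-beta gene, CCN2 (0.21, adjusted p = 0.0328). Over 2 to 24 h the lists held 1 call in the 3 comparisons, TGFB2, which was lower with 5SGlcNAc against Thiamet-G (-0.40, adjusted p = 0.0215).

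Before 48 h each treatment has 1 array per time, so the mean difference over 2, 4, 6, 8 and 24 h was tested with the 5 times standing in for replicates. None of the 32 chains was called with 5SGlcNAc or with Thiamet-G against DMSO by limma, and 0% of all genes were called in either comparison. With 5SGlcNAc against Thiamet-G no chain was called, and 0.0836% of all genes were higher and 0.176% lower. At an unadjusted p under 0.05, 3 chains were higher and 0 lower with 5SGlcNAc against DMSO, where 239 genes were higher and 285 lower. With Thiamet-G against DMSO, 5 chains were higher and 0 lower, against 551 and 560 of all 11963 genes. With 5SGlcNAc against Thiamet-G, 1 chain was higher and 2 were lower, against 708 and 873 of all genes. The medians of the chains in these comparisons were 0.01, 0.03 and -0.006. The well-expressed chains differed from DMSO by -0.05 to 0.04 with 5SGlcNAc. COL7A1 differed by 0.16 (95% interval 0.01 to 0.31, not adjusted for the number of genes) in that comparison. It was not called (limma adjusted p of 0.9996 or above). COL4A5 was higher with Thiamet-G than with DMSO at 5 of 5 times, by 0.15 on average (adjusted p = 0.481) and by 0.009 at 6 h. The dim chain COL5A3 was also higher at all 5 times. How often this held among all genes was not counted.

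For COL6A3 the mean difference with 5SGlcNAc over these times was -0.06 (95% interval -0.22 to 0.11), but the single times were not alike. It was 0.02, 0.01, -0.02 and 0.19 at 2, 4, 6 and 8 h and -0.49 at 24 h, where 1 array stood against 1. COL13A1 differed by -0.24 and COL6A1 by -0.23 at 24 h, after -0.06 to 0.07 and -0.09 to 0.16 at the earlier times. COL4A5 differed by -0.18, COL4A1 by -0.15, COL5A1 by 0.03 and COL4A2 by 0.01 at 24 h. These 24 h values have no replicate check.

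Whether the 48 h difference exceeded the earlier one was tested directly, each taken within its own set of arrays. For 5SGlcNAc the difference was more negative at 48 h in 4 chains and less negative in 0, against 1.41% and 0.368% of all genes. The chains were COL6A3 (-0.68 ± 0.117, SE, limma adjusted p = 0.00665, 24 arrays), COL4A5 (-0.62 ± 0.131, adjusted p = 0.0193), COL13A1 (-0.28 ± 0.065, adjusted p = 0.0351) and COL5A1 (-0.37 ± 0.094, adjusted p = 0.0490). Without the 4 h arrays only COL6A3 was called, while the differences of the others stayed near their size, at -0.57 for COL4A5 (adjusted p = 0.0587), -0.28 for COL13A1 (adjusted p = 0.0651) and -0.39 for COL5A1 (adjusted p = 0.0591). Against the arrays of 8 and 24 h alone no chain was called, with -0.59 for COL6A3 (adjusted p = 0.281), -0.55 for COL4A5, -0.22 for COL13A1 and -0.30 for COL5A1 (adjusted p = 0.346 to 0.448). For Thiamet-G no chain was called, and 0% of all genes were. At an unadjusted p under 0.05, 2 chains were lower and 0 higher, where 592 of all genes were lower and 183 higher.

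**Figure D4:**
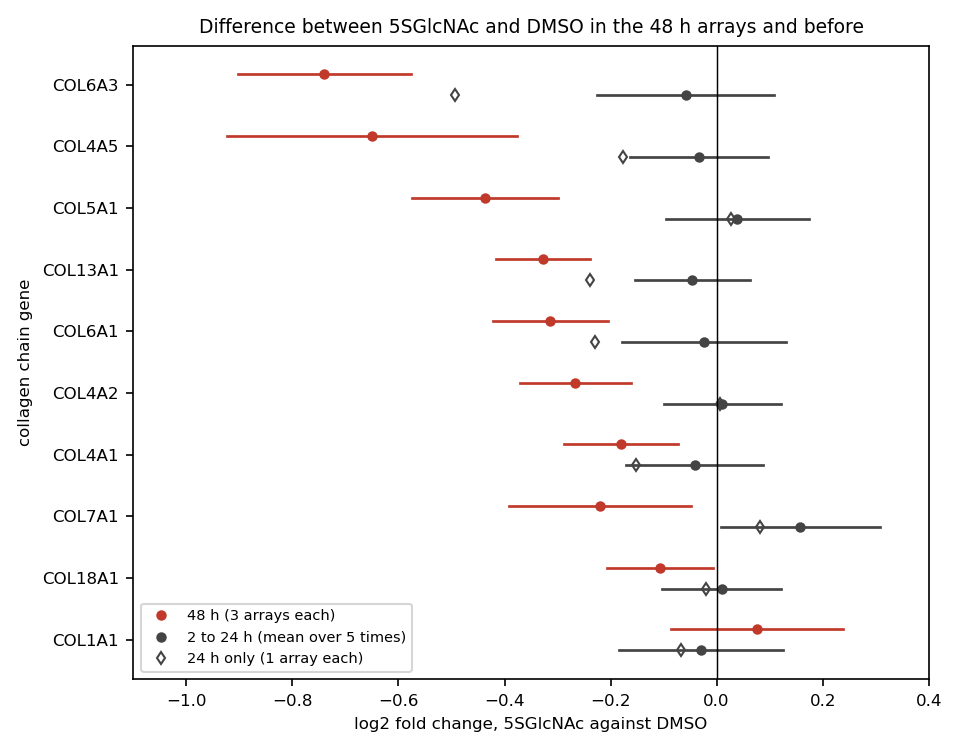
Log2 fold change of 5SGlcNAc against DMSO for 10 collagen chain genes, with 95% intervals, at 48 h (red) and as the mean of 2 to 24 h (dark), and the single-array difference at 24 h (open diamond). COL6A3 was at -0.74, -0.06 and -0.49 in that order; for COL5A1 and COL7A1 the brightest probe set differed between the sets.

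Time in culture was compared across the 3 treatment series, each with 1 array per time. At 24 h against 0 h, 8 chains fell and 0 rose: COL15A1, COL4A1, COL6A1, COL5A1, COL6A3, COL7A1, COL4A2 and COL16A1. Over all genes 5.14% were lower and 4.83% higher by limma, in a fit of the 18 arrays with the series as a block. By signal, 3 of 6 well-expressed, all 3 intermediate and 2 of 23 dim chains fell (medians -0.25, -0.65 and -0.01), and 7.47% of all genes at or above the median level did. The median of the 32 chains was -0.04, against 0.01 over all genes. At an unadjusted p under 0.05, 9 chains were lower and 1 higher, where 1383 of all 11963 genes were lower and 1426 higher.

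COL15A1, a multiplexin of the basement membrane zone, changed most. In its series of 0, 2, 4, 6, 8 and 24 h it had 6.02, 5.61, 5.59, 5.41, 5.22 and 4.58 with 5SGlcNAc, 5.98, 5.85, 5.50, 5.63, 5.54 and 4.87 with Thiamet-G, and 6.13, 5.77, 5.24, 5.13, 5.19 and 5.06 with DMSO. It was under its 0 h value at each later time in all 3 series. At 24 h it had fallen by 1.21 ± 0.130 (SE, n = 3 series, limma adjusted p = 5.53e-05), although its signal was under the olfactory receptor mark throughout.

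Type VI and type IV chains came next. COL6A3 had 9.45, 9.37, 9.33, 9.29, 9.32 and 8.60 over the 6 times with 5SGlcNAc, 9.56, 9.37, 9.42, 9.19, 9.28 and 8.90 with Thiamet-G, and 9.54, 9.35, 9.32, 9.30, 9.13 and 9.10 with DMSO. At 24 h it differed from 0 h by -0.85, -0.66 and -0.44 in those series, a fall of 0.65 on average (adjusted p = 0.000573). COL6A1 had 8.61, 8.61, 8.54, 8.42, 8.31 and 7.72 with 5SGlcNAc, 8.53, 8.51, 8.41, 8.48, 8.44 and 8.14 with Thiamet-G, and 8.64, 8.45, 8.57, 8.34, 8.40 and 7.95 with DMSO. Each series was lowest at 24 h, and the differences from 0 h were -0.89, -0.39 and -0.69 (mean -0.65, adjusted p = 0.000392), again in 1 of 8 probe sets, while COL6A2 differed by 0.11 (adjusted p = 0.441).

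COL4A1 had 10.73, 10.58, 10.61, 10.60, 10.61 and 9.93 with 5SGlcNAc, 10.75, 10.60, 10.64, 10.62, 10.60 and 10.27 with Thiamet-G, and 10.71, 10.56, 10.62, 10.78, 10.50 and 10.08 with DMSO. Most of its fall of 0.63 ± 0.071 (SE, n = 3 series, limma adjusted p = 9.50e-05) lay between 8 and 24 h, since its mean difference from 0 h was -0.16 at 8 h. COL4A2 differed from 0 h by -0.08 at 8 h and fell by 0.35 at 24 h (adjusted p = 0.00230). The COL4A2 call was lost without the DMSO series (-0.30, adjusted p = 0.0729), without the 5SGlcNAc series (-0.35, adjusted p = 0.0785) and with only the 0 and 24 h arrays (adjusted p = 0.0586). COL4A5 differed by -0.46 with 5SGlcNAc, 0.12 with Thiamet-G and -0.26 with DMSO at 24 h against 0 h, and was not called (adjusted p = 0.214).

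COL5A1 had 10.05, 10.00, 9.79, 9.82, 9.73 and 9.38 over the 6 times with 5SGlcNAc, 9.90, 9.85, 9.65, 9.81, 9.72 and 9.56 with Thiamet-G, and 10.06, 9.83, 9.93, 9.73, 9.69 and 9.35 with DMSO. It too was lowest at 24 h in each series. COL5A1 differed at 24 h by -0.68, -0.34 and -0.72 with 5SGlcNAc, Thiamet-G and DMSO (mean -0.58, adjusted p = 0.000392), and COL7A1 by -0.50, -0.44 and -0.56 (mean -0.50, adjusted p = 0.00205), with every probe set of both called. The COL7A1 call was lost without the DMSO series (-0.47, adjusted p = 0.05002) and without the 5SGlcNAc series (-0.50, adjusted p = 0.0576). COL16A1, a fibril-associated chain at a dim level, fell by 0.28 (adjusted p = 0.0398), a call lost without any 1 series (adjusted p = 0.123 to 0.227) and after median centring (adjusted p = 0.0612), with a trended variance (adjusted p = 0.0571), with only the 0 and 24 h arrays (adjusted p = 0.134) and without the 4 h arrays (adjusted p = 0.0575). COL13A1, which fell with 5SGlcNAc at 48 h, had 12.74, 12.78, 12.73, 12.67, 12.76 and 12.68 with 5SGlcNAc, 12.67, 12.72, 12.68, 12.77, 12.77 and 12.80 with Thiamet-G, and 12.67, 12.71, 12.76, 12.73, 12.73 and 12.92 with DMSO. No common direction was seen at 24 h, where COL13A1 differed from 0 h by -0.06, 0.13 and 0.25 (mean 0.11, adjusted p = 0.309). COL18A1 was under its 0 h value in all 3 series at 24 h, by values of -0.13, -0.09 and -0.19, and was not called (adjusted p = 0.192).

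Probe sets disagreed for COL1A1 and COL8A1. The brightest COL1A1 probe set differed by 0.03 at 24 h (adjusted p = 0.901 over all probe sets). A dimmer one had 7.16 at 0 h and 6.45 at 24 h with 5SGlcNAc, 7.15 and 6.76 with Thiamet-G, and 7.21 and 6.54 with DMSO, and fell by 0.59 (adjusted p = 0.00101). For COL8A1, a short network chain, the brighter probe set differed by 0.01 and the dimmer one fell by 0.53 (adjusted p = 0.00206). Even the brighter COL8A1 probe set, with a mean of 5.88 at 0 to 24 h, lay under the olfactory receptor mark of 7.32. The values given for the dimmer COL1A1 probe set did too, so the sizes of both falls are uncertain. Over all probe sets 4.02% were lower at 24 h, and 15 of the 73 collagen ones were.

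**Figure D5:**
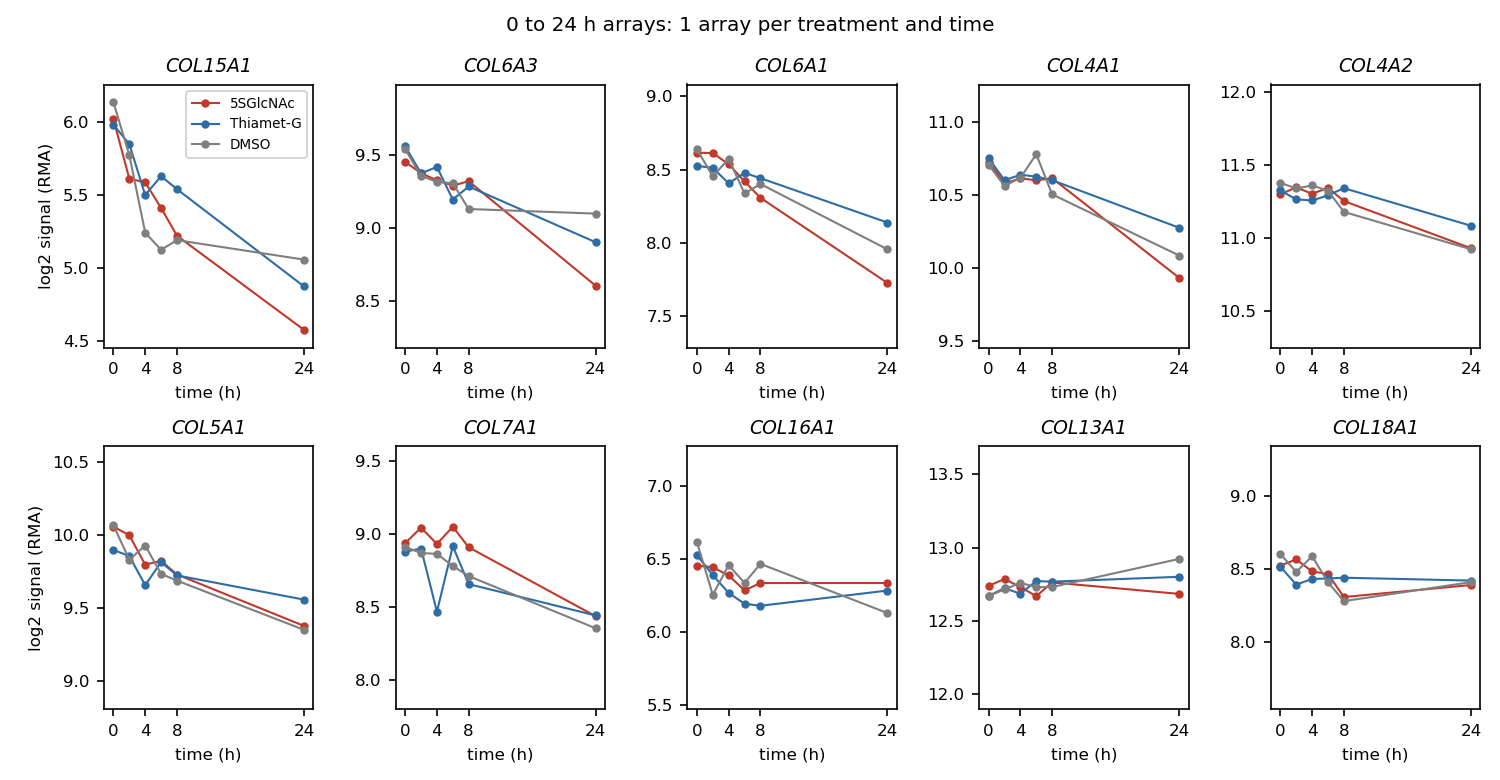
Log2 signal (RMA) of 10 collagen chain genes against time (0, 2, 4, 6, 8 and 24 h), 1 array per point and 1 line per treatment, each panel spanning 1.8 log2 units. COL15A1 lay under its 0 h value at every later time in all 3 series, COL4A1 changed most between 8 and 24 h, and COL13A1 stayed between 12.67 and 12.92.

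Of the 7 chains lower with 5SGlcNAc at 48 h, 5 (COL4A1, COL4A2, COL5A1, COL6A1 and COL6A3) were among the 8 lower at 24 h against 0 h, which is 71.4% of the first list and 62.5% of the second. The same overlap was not counted over all genes. Genes at or above the median level were called lower more often in both comparisons (11.2% against 3.43% under it, and 7.47% against 2.81%). These shares therefore cannot be read as particular to collagen chains. The comparisons share no array. COL13A1 and COL4A5 were in the first list only, and COL7A1, COL15A1 and COL16A1 in the second only; these differences between the lists were not tested.

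Among the lists, the fibril partners FN1, fibronectin (-0.65, limma adjusted p = 2.17e-05), LUM (-1.05, adjusted p = 0.000831) and TNC (-0.40, adjusted p = 0.00446) fell at 24 h against 0 h and 0 of 19 rose, where 5.14% of all genes were lower and 4.83% higher. Of 10 receptors, the integrin subunit ITGA10 fell (-0.57, adjusted p = 0.00841) and 1 rose. The procollagen proteinase ADAMTS3 was the only one of its 10 list members called (0.81, adjusted p = 0.00158, at a dim mean of 6.13), and the collagen prolyl hydroxylase P3H2 the only one of 21 (0.26, adjusted p = 0.0336). Of 13 TGF-beta genes 2 fell, SMAD7 (-0.42, adjusted p = 0.00122) and TGFBI (-0.36, adjusted p = 0.00456), and 2 rose, among them the co-receptor TGFBR3 (0.48, adjusted p = 0.00479). In the luminal list 4 genes fell and 1 rose at the same time. Their part in the collagen result was not tested.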

How the data were processed

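Per the submitters' processing notes, the authors made the deposited log2 values with RMA (background correction, normalization and summary of each probe set's probes); its version is not given in the sources used here, and array signal over background is not stated. Of 22277 probe sets, 19064 name 1 gene in the platform annotation, which covers 11963 genes. A gene was represented by its probe set of highest mean over the arrays of a fit. Differences were tested with limma 3.58.1 in R 4.3.3 (lmFit and eBayes, two-sided, Benjamini-Hochberg adjustment over all genes, calls at adjusted p under 0.05). The 48 h fit held 9 arrays in 3 groups. The 2 to 24 h fit held 15 arrays with time as a block, and the 24 h against 0 h fit 18 arrays with the series as a block. The difference of effects was fitted over 24 arrays. Within each set no 2 arrays held identical values. The lowest correlation between arrays of a set was 0.997 at 48 h and 0.994 at 0 to 24 h. The number of arrays limits the precision: the median SE was 0.0615 at 48 h. The fits were tested on data simulated with independent normal errors. Such data cannot show how the fits behave where replicates are technical or times stand in for replicates. Chains were named where well expressed, intermediate or called, and list members where called and among the 3 smallest p of a list. Dim partner chains (COL1A2, COL4A3, COL4A4, COL4A6, COL5A2 and COL6A2) and the dim chain COL5A3 were named after their values were seen. The members, lists and tests were chosen with earlier results of these data known. Alternatives covered scaling, the filter on dim genes, probe sets, variance model, samples in the fit and left-out arrays. Promoter windows came from RefSeq, matched by gene symbol.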

Additional observations from a re-analysis of the deposited data

Results flagged for a closer look

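In 4 chains the difference between 5SGlcNAc and DMSO at 48 h was more negative than the mean difference over 2 to 24 h, by the limma test of that difference. The log2 values were -0.68 for COL6A3 (adjusted p = 0.00665), -0.62 for COL4A5 (adjusted p = 0.0193), -0.28 for COL13A1 (adjusted p = 0.0351) and -0.37 for COL5A1 (adjusted p = 0.0490). All 4 lie in the comparison of a replicated set with single arrays per time. For COL5A1 the brightest probe set differed between the sets. The test of the difference used the same probe set in both, the brightest over its 24 arrays. No group at a single time had the 4 arrays needed to look for a stray array.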

How the results depend on the processing

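At 48 h, arrays were left out only from the groups compared. The number of collagen chains lower with 5SGlcNAc against DMSO at 48 h was 6 to 8 under the other settings and 6 to 7 without any 1 such array. Against Thiamet-G it was 5 to 7 in both, and 0 chains were higher in each. With Thiamet-G against DMSO, 0 chains were lower after quantile normalization and after median centring, 1 (COL6A1) was higher with dim genes left out, and 0 to 1 was lower without 1 array (0 without Thiamet-G replicate 1 or 3 or any DMSO replicate). At 24 h against 0 h, 1 chain (COL4A4) was higher after median centring, 5 to 7 were lower without 1 series (5 without the DMSO series or the 5SGlcNAc series), and 6 to 9 under the other settings. Without probe sets named _x_at, COL1A1 turned from 0.03 to -0.59 (limma adjusted p = 0.000777), because another probe set then represents it. COL6A1 lost its call with the mean of its probe sets (-0.07, adjusted p = 0.553). The difference of 5SGlcNAc effects was called in 1 chain without the 4 h arrays, where the other 3 kept values of -0.57 to -0.28 (adjusted p = 0.0587 to 0.0651), and in 0 against the 8 and 24 h arrays alone, with values of -0.59 to -0.22; both settings were chosen after seeing the data. The number of well-expressed chains was 10 at the 40th percentile, 2 at the 75th and 10 at the olfactory receptor mark. Same-numbered 48 h arrays did not deviate together (correlations -0.33 to 0.17 over 9 pairs). No pairing by number was seen, but with 3 arrays per group such a check cannot exclude it. With the replicate number as a block, 7 chains were lower with 5SGlcNAc against DMSO (COL15A1 in, COL4A1 out), 1 with Thiamet-G and 5 with 5SGlcNAc against Thiamet-G. Over all genes, calls lower and higher were 529 to 1244 (876 as reported) and 150 to 550 (349) for 5SGlcNAc against DMSO, 87 to 789 (360) and 14 to 201 (57) for Thiamet-G, and 136 to 750 (615) and 102 to 764 (578) for 24 h against 0 h. For 5SGlcNAc against Thiamet-G they were 515 to 1147 (812) and 411 to 1119 (822) at 48 h and 0 to 116 (21) and 0 to 64 (10) over 2 to 24 h, and for the difference of 5SGlcNAc effects 8 to 281 (169) and 3 to 83 (44). Beyond what is stated, the cause of these changes was not tested.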
